A study of Mus musculus with 6 samples.

Results

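Gamt, Gpi1, Prdx2 and Duox1 are 4 genes of energy and peroxide metabolism whose probes lie on an array made mainly for circular RNA. They were chosen by name, as 3 stated probes and the 1 probe whose accession is a RefSeq transcript of mouse Duox1. They are 4 of the 50 mRNA probes of the array, of which 44 could be given a gene symbol through their accession, and each is printed as 10 spots. The probes are A_51_P484869 for Gamt (NM_010255), A_51_P426886 for Gpi1 (NM_008155), A_51_P147207 for Prdx2 (NM_011563) and A_51_P475138 for Duox1 (NM_001099297). All 4 accessions led to the stated gene.

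Each of the 4 proteins stands at a known step. Gamt encodes guanidinoacetate N-methyltransferase, which carries out the last step of creatine synthesis. Heart muscle is known to take most of its creatine from blood and to use phosphocreatine as a quick store for regenerating ATP. Gpi1 encodes glucose-6-phosphate isomerase, which turns glucose 6-phosphate into fructose 6-phosphate near the start of glycolysis. Duox1 encodes a dual oxidase, a membrane enzyme activated by calcium that makes hydrogen peroxide from NADPH and oxygen and is best known from thyroid and airway epithelium. Prdx2 encodes a cytosolic peroxiredoxin, which removes hydrogen peroxide with electrons from thioredoxin and is very abundant in red blood cells.

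The study compared 3 heart samples of sham-operated mice with 3 of mice with a myocardial infarction (MI) made by ligation of the left anterior descending coronary artery, 1 array each. All were wild-type males aged 10 weeks. The labels disagree on the time of sampling: the treatment protocol and the design text give 1 day, and the MI source name gives 4 weeks. RNA of both groups was digested with RNase R, an enzyme that removes linear RNA and leaves most circles, then randomly primed and labelled with the dye Cy3. The values below are therefore signals of mRNA probes in RNA depleted of linear transcripts, and they are not levels of mRNA in the heart. The labels do not say whether samples came from separate animals, whether RNA was pooled or which part of the heart was taken, so the p-values measure only the spread between these samples, which may be technical. In whole tissue, fewer cells of a type and less RNA per cell cannot be told apart.

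Signal is given on 2 scales. The processed intensity is the brightness of a spot after the scanner software subtracted background and detrended the array. The scaled signal is its log2 value, averaged over the unflagged spots of a probe, minus the 75th percentile of the same array, which was 68.0 to 124 intensity units in sham and 108.5 to 153 in MI. Change was tested over 11554 circRNA and mRNA probes with limma's moderated test and Benjamini-Hochberg adjustment, and a probe passed with an adjusted p under 0.05. Very many probes passed: 50.5% of all tested probes, with 25.7% higher and 24.8% lower in MI, and 48.8% of the 41 tested mRNA probes. That split depended on the scaling, with 64.1% of calls higher under median centring, 71.4% with no scaling and 37.7% when the percentile was taken over bright probes only, against 50.9% in the main setting. Those 3 settings moved the median change of all probes by 0.31, 0.43 and -0.25 on the log2 scale. The Sham 2 array was the only one with its own scan identifier in the file headers, and across circRNA probes it correlated at 0.912 and 0.908 with the other sham arrays, which correlated at 0.977 with each other. The change of each gene and each ratio of 2 genes is therefore also given over the 5 arrays that share a scan. With the MI arrays Sham 2 correlated at 0.875 to 0.909, and Sham 1 and Sham 3 at 0.823 to 0.877. The 5 arrays thus hold only 2 sham arrays and leave out the sham array most like MI. Markers of heart muscle could not be checked, since none of the 12 cardiomyocyte genes listed had a named probe, and of 56 listed cell type markers only Mbp had one.

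Of the 4 genes, the Gamt probe alone passed the test over 6 arrays, and it was higher in MI. The Prdx2 and Duox1 probes had higher means in MI and the Gpi1 probe a lower mean, without passing. That is 1 of 4 genes higher with an adjusted p under 0.05, beside 34.1% of the 41 mRNA probes and 25.7% of all tested probes. Over the 5 arrays that share a scan, 3 of 4 passed, namely Gamt, Prdx2 and Duox1, all higher in MI, beside 56.1% of the mRNA probes and 36.6% of all tested probes.

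**Figure D1:**
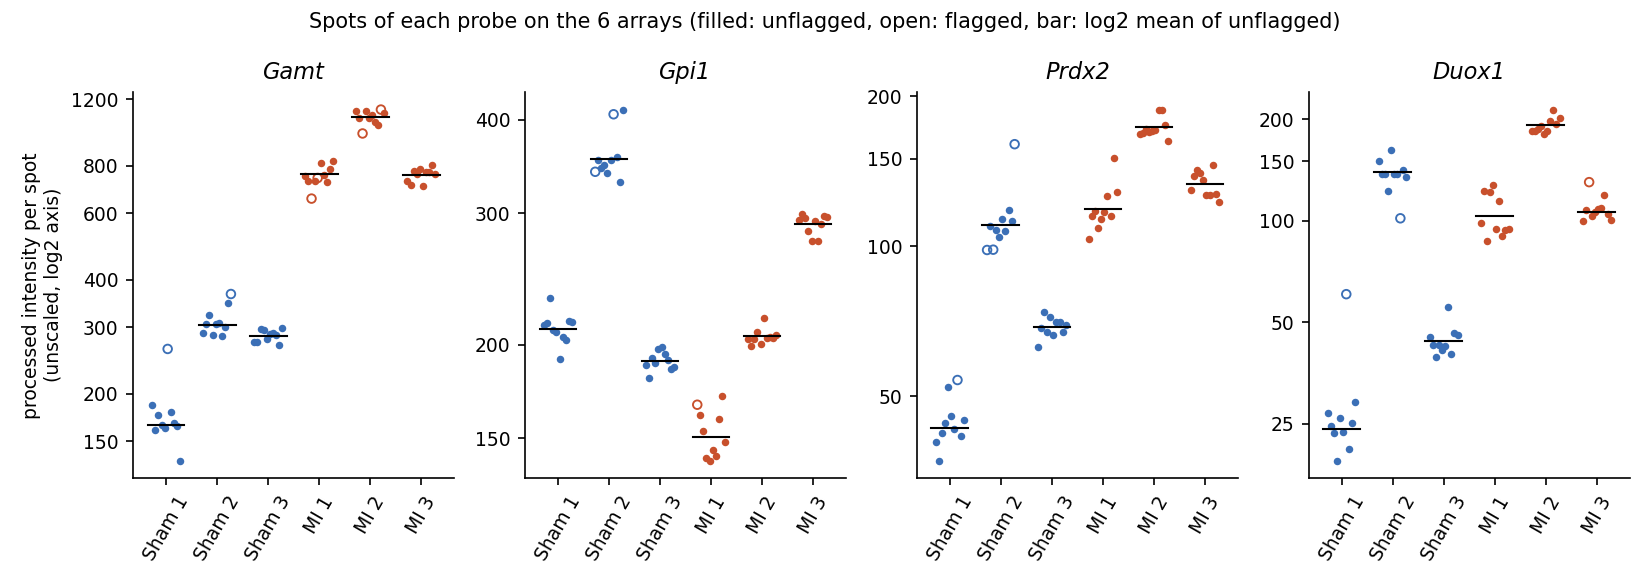
Processed intensity, unscaled and on a log2 axis, of each of the 10 spots per probe on the 3 sham arrays (blue) and 3 MI arrays (orange), with 1 panel and 1 intensity range per gene. Open circles are flagged spots and bars the log2 mean of the unflagged ones. The lowest Gamt spot in MI, 656, lies above the highest in sham, 367, while the sham arrays of Duox1 are spread from 24.2 to 139.8 by their means.

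The spots were a precise measure of each array. All 240 spots of the 4 probes were well above background, none was saturated, and 16 were flagged as outliers and left out. The raw signal of the 4 probes had medians per array from 46.25 to 1091.5, against 20 to 25.5 on the 77 negative control spots. Among the unflagged spots of an array the coefficient of variation was 2.40% to 7.06% for Gpi1, 3.15% to 9.16% for Gamt, 4.18% to 10.9% for Prdx2 and 5.29% to 14.5% for Duox1. The standard error of an array's mean over its spots was at most 0.07 on the log2 scale, at Duox1. Arrays closer than that, such as MI 1 and MI 3 for the unscaled Gamt and Duox1 signals, cannot be put in order. Spots of 1 array share its RNA and are no replicates of a condition.

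Gamt, the creatine synthesis gene, had a mean intensity of 166 on Sham 1, 305 on Sham 2 and 285 on Sham 3. It was at 764 on MI 1, 1079 on MI 2 and 757 on MI 3. Every MI array was brighter than every sham array, and so was every single spot, the flagged ones included. Scaled, the 3 sham values were 1.28, 1.30 and 1.46 and the 3 MI values 2.82, 2.82 and 2.55. The groups stood apart by 1.09 from the highest sham to the lowest MI value, several times the spread inside either group.

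The Gamt probe rose in MI from 1.35 ± 0.10 to 2.73 ± 0.15 (SD, n = 3). The log2 fold change was 1.38 (SE 0.22, limma adjusted p = 0.00312), a 2.60-fold rise with a 95% interval of 1.83-fold to 3.70-fold. It was the highest but 6 among the 41 tested mRNA probes, whose median log2 fold change was 0.60. Among all tested probes, whose median was 0.10, 10.4% had a higher value. The change did not rest on Sham 2, which lay 0.07 below the mean of the other sham arrays, the smallest such distance of the 41 mRNA probes. Over the 5 arrays that share a scan the log2 fold change was 1.36 (SE 0.20, adjusted p = 0.00196).

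Gamt spots differed most on MI 1 before the software's detrending. The raw signal of the 10 Gamt spots on MI 1 ran from 377.5 to 976, and the processed intensity from 656 to 822. The spots with raw signals of 377.5 and 584.5, in columns 2 and 9 near the left edge, were flagged and left out. With flagged spots kept the log2 fold change was 1.32, and on raw signals without background subtraction it was 1.37.

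Gpi1, the glycolytic isomerase, had intensities of 210.1, 354 and 190.2 on Sham 1, Sham 2 and Sham 3 and of 151, 205 and 289.8 on MI 1, MI 2 and MI 3. The groups overlapped on this unscaled scale, with Sham 2 the highest and MI 1 the lowest. Scaled, the sham values were 1.63, 1.52 and 0.88 and the MI values 0.47, 0.43 and 1.17. Here too they overlapped, since MI 3 lay above Sham 3.

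The Gpi1 probe did not pass the test. Its scaled sham mean of 1.34 ± 0.40 stood beside 0.69 ± 0.41 on MI arrays (SD, n = 3). The log2 fold change was -0.65 (SE 0.32, limma adjusted p = 0.121). The 95% interval ran from -1.39 to 0.09, that is from 0.381 to 1.06 times the sham signal. Over the 5 arrays of 1 scan the value was -0.57 (adjusted p = 0.169). The size depended on the scaling, from -0.91 with the percentile of bright probes to -0.22 with no scaling, and it was below 0 in all 21 alternatives with adjusted p from 0.0587 to 0.705.

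Duox1, the peroxide-producing oxidase, showed the widest spread in sham. Its intensity was 24.2 on Sham 1, 139.8 on Sham 2 and 44.1 on Sham 3. It was 104, 192 and 106 on MI 1, MI 2 and MI 3. Sham 2 was brighter than MI 1 and MI 3, while Sham 1 and Sham 3 lay below every MI array. Scaled, the sham values were -1.49, 0.18 and -1.23 and the MI values -0.07, 0.33 and -0.28. Sham 2 again lay above MI 1 and MI 3, and the other sham arrays below every MI array.

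Over 6 arrays the Duox1 probe did not pass. The sham mean was -0.85 ± 0.90 and the MI mean -0.01 ± 0.31 (SD, n = 3). The log2 fold change of 0.84 (SE 0.45, limma adjusted p = 0.151) had a 95% interval from -0.20 to 1.88. Sham 2 lay 1.53 above the mean of the other sham arrays, the fourth largest such distance among the 41 mRNA probes, where the median size was 0.57. Over the 5 arrays that share a scan, Duox1 rose by 1.35 (SE 0.25, adjusted p = 0.00352, against 0.00352 to 0.398 over all 21 alternatives), a 2.55-fold rise. That fold rests on Sham 1 and Sham 3, whose raw Duox1 medians were 46.25 and 64.5, against 20 and 20.5 on their negative controls. Over 6 arrays the log2 fold change was 0.58 on raw signals and 0.41 with normexp background correction. The part of the separate scan in the Sham 2 value was not tested. No other array shares that scan, so scan and sample cannot be told apart here.

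A spot of the Duox1 probe at row 122, column 58 of the array was the brightest of the 10 on both Sham 1 and Sham 3. It read 60.6 on Sham 1, where it was flagged and left out, and 55.6 on Sham 3, where it was kept. The other spots of Sham 1 gave 19.4 to 29.0. Using only the first 5 or the last 5 spots by position, the log2 fold change of Duox1 was 0.86 and 0.82.

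Prdx2, the peroxiredoxin, had intensities of 43.2, 110.4 and 68.8 on Sham 1, Sham 2 and Sham 3 and of 119, 173 and 133 on MI 1, MI 2 and MI 3. Every MI array was above every sham array. Scaled, the sham values were -0.65, -0.17 and -0.59 and the MI values 0.13, 0.18 and 0.05. The groups again did not overlap, with a gap of 0.21 between Sham 2 and MI 3. Gamt and Prdx2 thus had every MI array above every sham array, 2 of the 4 genes, as did 39% of the 41 mRNA probes and 31.2% of all tested probes with a value on every array.

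The Prdx2 probe missed the threshold over 6 arrays. The sham mean was -0.47 ± 0.26 and the MI mean 0.12 ± 0.07 (SD, n = 3). The difference of 0.59 (SE 0.23) had a limma adjusted p = 0.0693. The 95% interval, which carries no adjustment, ran from 0.04 to 1.13. This change was close to the median of the tested mRNA probes, 0.60. Over the 5 arrays that share a scan Prdx2 rose by 0.74 (SE 0.18, adjusted p = 0.0114, against 0.0114 to 0.290 over all 21 alternatives), a 1.67-fold rise. Sham 2 lay 0.45 above the mean of the other sham arrays.

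**Figure D2:**
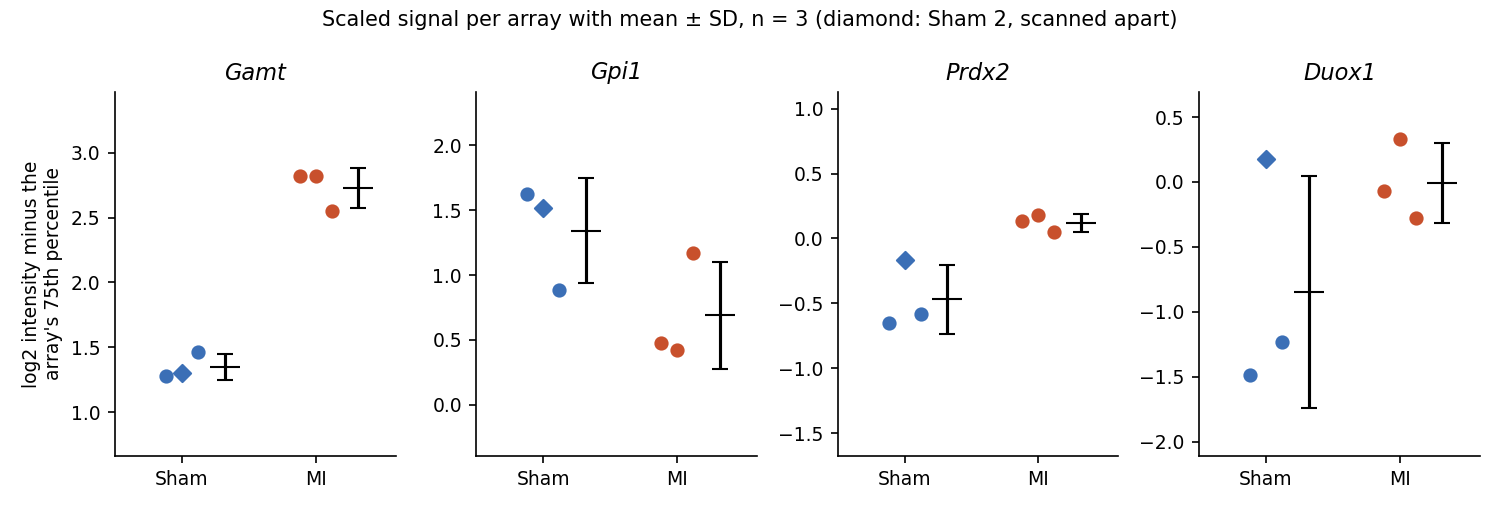
Scaled signal (log2 intensity minus the array's 75th percentile) of each gene per array, with mean ± SD of 3 arrays beside the points. Each axis spans the same 2.8 log2 units, and the diamond is Sham 2, the array with its own scan. Gamt and Prdx2 have no overlap between groups, while Sham 2 lies among the MI arrays for Duox1.

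A log ratio of 2 probes on the same array cancels any shift of the whole array, so it does not depend on how arrays were scaled by a single factor. Its own size has no meaning, because 2 probes bind with different strength, and only its difference between groups is read. With 3 arrays against 3 an exact permutation test cannot give a p under 0.1. The 6 pairs of the 4 genes were compared, two-sided. How often ratios of other probes kept the groups apart was not counted.

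The widest shift was that of Gamt over Gpi1. It had to be, since a ratio's shift is the difference of the changes of its genes, here the highest and the lowest. The log2 ratio was -0.34, -0.22 and 0.58 on the sham arrays and 2.34, 2.39 and 1.39 on the MI arrays. The groups did not overlap and differed by 2.03, a 4.09-fold shift (exact permutation p = 0.1, the smallest possible, adjusted over 6 pairs 0.2). Without Sham 2 the difference was 1.92. Gamt against Prdx2 went from 1.94, 1.47 and 2.05 in sham to 2.68, 2.64 and 2.51 in MI, again without overlap, a difference of 0.79 (exact permutation p = 0.1, adjusted 0.2). It was 0.62 without Sham 2, and after quantile normalization it was 0.32 and the groups overlapped (exact permutation p = 0.2).

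The ratio of Gpi1 to either peroxide gene had a lower mean in MI. Against Prdx2 it was 2.28, 1.68 and 1.47 in sham and 0.34, 0.24 and 1.12 in MI, a difference of -1.24 with no overlap (exact permutation p = 0.1, adjusted 0.2), and of -1.30 without Sham 2. Against Duox1 the difference was -1.49, and the groups overlapped through Sham 2 and MI 3 (exact permutation p = 0.2, adjusted 0.3). Without Sham 2 it was -1.92. Over all 6 arrays it was -0.87 with normexp background correction, -1.15 on raw signals and -1.79 after quantile normalization. In each of these settings the groups did not overlap (exact permutation p = 0.1). Gamt against Duox1 differed by 0.54 with overlap (exact permutation p = 0.5, adjusted 0.6). Without Sham 2 that difference was 0.0023, since on the arrays of 1 scan the changes of Gamt and Duox1 were 1.36 and 1.35. After quantile normalization of all 6 arrays it was 0.03 (exact permutation p = 1). With normexp background correction Gamt against Duox1 differed by 0.92 and on raw signals by 0.78, both without overlap (exact permutation p = 0.1). The 2 peroxide genes, Prdx2 against Duox1, differed by -0.25 with overlap (exact permutation p = 0.6, adjusted 0.6), and by -0.61 without Sham 2.

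**Figure D3:**
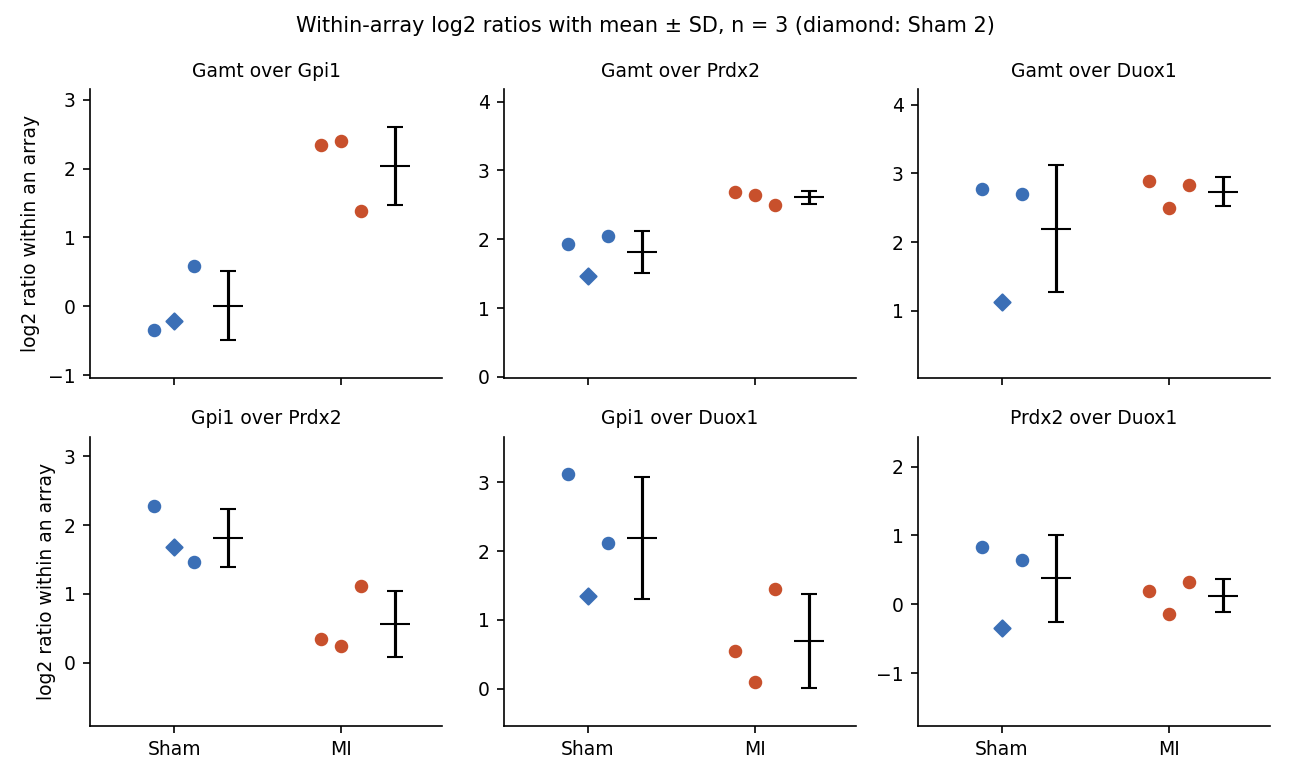
Log2 ratio of the processed intensity of 2 probes on the same array, for the 6 pairs, with mean ± SD of 3 arrays. Each panel spans 4.2 log2 units and the diamond is Sham 2. Gamt over Gpi1 shows the widest gap without overlap, with sham values from -0.34 to 0.58 and MI values from 1.39 to 2.39.

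The median change of circRNA probes was higher among brighter probes, so each gene was set beside circRNA probes within 0.5 log2 units of its own mean scaled signal. For Gamt there were 717 such probes, with a median log2 fold change of 0.96 (quartiles 0.06 and 1.35). The Gamt value of 1.38 was above 76.4% of them, and 53.8% of them had passed as higher in MI. For Gpi1 there were 1013 such probes with a median of 0.70, and the Gpi1 value of -0.65 lay 1.36 under it and was below 79.9% of them. Prdx2 had 1553 such probes with a median of 0.27, lay 0.31 above it and was above 59.9% of them. Duox1 had 1688 with a median of 0.24, lay 0.60 above it and was above 73.3% of them. With arrays quantile normalized to a common intensity distribution, Gamt changed by 0.95 (adjusted p = 0.0108) beside a median of 0.48, and Gpi1 by -0.88 beside 0.48. How much of each value goes with brightness was not tested.

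**Figure D4:**
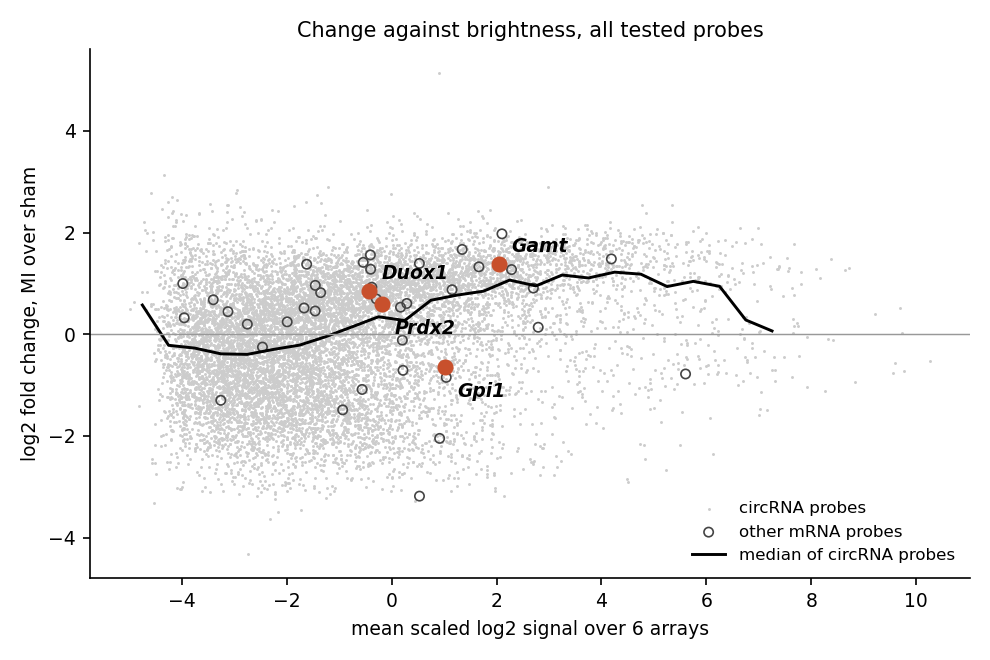
Log2 fold change (MI over sham) of all tested probes against their mean scaled signal over 6 arrays. Small dots are circRNA probes, open circles the other mRNA probes, filled circles the 4 genes and the line the median of circRNA probes in steps of 0.5 log2 units. Gamt lies 0.42, Duox1 0.60 and Prdx2 0.31 log2 units above the median of circRNA probes of like brightness, and Gpi1 1.36 below it.

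The size of each change depended on the scaling. Over the main setting, quantile normalization, median centring, the percentile of bright probes and no scaling, the log2 fold change ran from 0.95 to 1.81 for Gamt, from 0.33 to 1.02 for Prdx2 and from 0.59 to 1.28 for Duox1. Relative to the median of all tested probes in the same setting, the ranges were 0.75 to 1.28 for Gamt, -1.08 to -0.75 for Gpi1, 0.43 to 0.49 for Prdx2 and 0.71 to 0.74 for Duox1. All these settings but quantile normalization shift a whole array by a single constant. Subtracting the median nearly cancels that shift, so the narrow ranges show no stability. Also relative to the median of all tested probes, Gpi1 was at -0.35 and Duox1 at 0.53 with normexp background correction. On raw signals they were at -0.49 and 0.66 relative to it. Relative to the same median, Gamt was at 1.45 and 1.44 in these 2 settings, and Prdx2 at 0.45 and 0.50. Gamt passed the test in all 21 alternatives run, and Gpi1 in none.

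**Figure D5:**
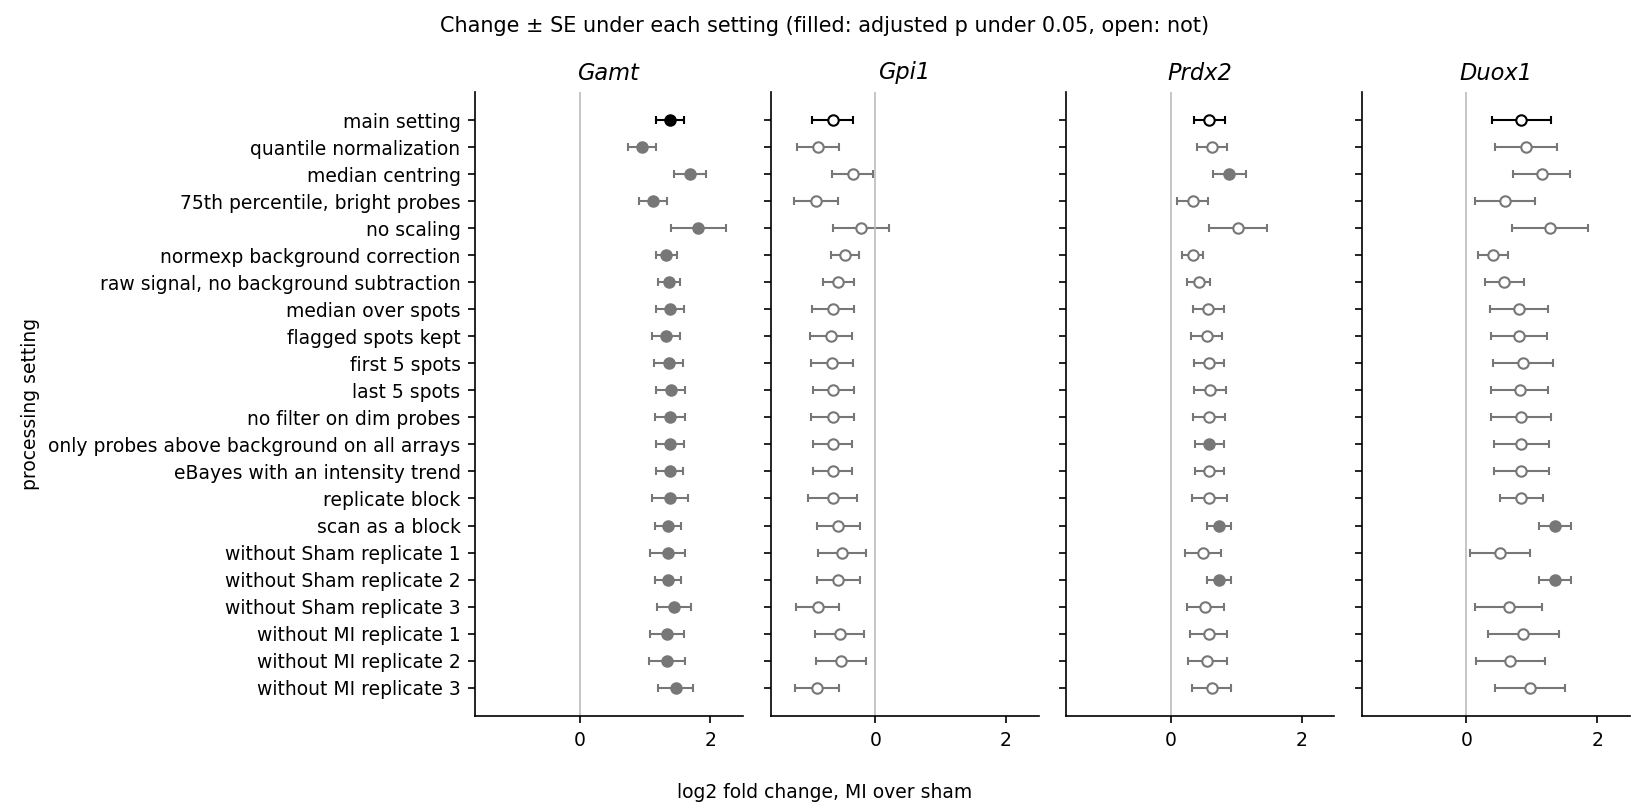
Log2 fold change (MI over sham) ± SE of each gene in the main setting (black) and 21 alternatives (grey), with filled points where the adjusted p was under 0.05. Gamt is filled in every row, from 0.95 to 1.81, Gpi1 is open in every row, and Duox1 is filled only where Sham 2 was left out or its scan was a block.

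The tested mRNA probes most like each gene over the 6 arrays were found by Pearson's r of the scaled values among 32 other probes with a symbol. These r values describe the 6 arrays, share their scaling and contain the difference between groups. Gamt was most like Olfr166, an olfactory receptor gene, and Pex11a, which acts in peroxisome division, with r of 0.975 for both. Their own log2 fold changes were 1.33 and 1.27. Prdx2 was most like Lhx1 (r = 0.987), a homeobox factor, and Mzb1 (r = 0.969), a protein of the endoplasmic reticulum of B lineage cells. Their changes of 1.39 and 1.56 were larger than that of Prdx2.

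Duox1 was most like Carhsp1 (r = 0.974), a cold shock domain protein, and Cpt1a (r = 0.968), which loads long-chain fatty acids for mitochondria. Neither passed the test, at 0.82 (adjusted p = 0.140) and 0.52 (adjusted p = 0.150), and both had Sham 2 well above the other sham arrays. Carhsp1 was at -0.76 on Sham 2 and at -2.33 and -2.20 on Sham 1 and Sham 3. Cpt1a was at -1.43 on Sham 2 and at -2.16 and -2.18 on the other sham arrays. Gpi1 had no close match, with Ppara, the fatty acid oxidation receptor, at r = 0.791 and Atg3, an autophagy conjugation enzyme, at 0.687. Ppara changed by -3.19 against -0.65 at Gpi1, and MI 3 was the highest of the MI arrays for both.

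The 4 genes are also the whole of their pathways on these named probes. Of 7 listed genes of creatine synthesis, transport and phosphorylation only Gamt had a named probe, and of 30 listed genes of glycolysis and lactate only Gpi1. Of 23 genes of peroxide removal only Prdx2 had one, and of 20 genes of superoxide and peroxide production only Duox1. Counts over whole pathways could therefore not be made here. The circRNA probes carry no gene name in the files and were not assigned to these pathways. Of the 5 listed erythroid markers none had a named probe, so blood content was not measured beside Prdx2.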

How the data were processed

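Each of the 6 arrays was deposited as output of Feature Extraction 11.0.1.1 (Agilent; per the file headers): processed intensity, raw intensity of spot and local background, and flags, for 15712 spots. The deposited series table of log2 values, normalized by the authors in a way not given in the sources used here, holds circRNA probes only and served for counts over all probes; limma is named without a role in the submitters' processing notes. The array grid is of mm9, per the file headers. Symbols came from RefSeq accessions without versions (GRCm38.p6).

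The 75th percentile was taken over all probes not marked as controls. Flagged spots (not uniform, or outliers among replicate spots) were left out. To be tested, a probe needed 3 or more arrays on which over 50% of its unflagged spots were marked well above background. The fit used lmFit and eBayes (limma 3.58.1, R 4.3.3), two-sided. The code was run on simulated data with independent noise and few changed probes, which does not show how the fit behaves on these arrays. Exact permutation tests used scipy 1.17.1 and figures matplotlib 3.10.9. The normexp alternative (offset 50) and the raw alternative used the median spot signal, since no mean signal was read from these files. The named genes were the 4 members and, for each, the 2 tested mRNA probes of highest Pearson's r. The members and lists were chosen with earlier results of these data known. The number of arrays limits the precision.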

Additional observations from a re-analysis of the deposited data

How the results depend on the processing

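The 21 alternatives kept the direction of all 4 genes. Some of them could not change it. Another probe filter, an intensity trend or the balanced replicate block leaves the log2 fold change as it was. Gamt kept its call in every one, and Gpi1 passed in none. Prdx2 passed in 4: at 0.90 under median centring (adjusted p = 0.0178), at 0.59 when only probes above background on all arrays were tested (adjusted p = 0.0494), and at 0.74 with the scan as a block or without Sham 2, which is the same fit. Duox1 passed in 2, at 1.35 with the scan as a block or without Sham 2. Leaving out 1 array gave 1.33 to 1.47 for Gamt, -0.89 to -0.51 for Gpi1, 0.49 to 0.74 for Prdx2 and 0.52 to 1.35 for Duox1. The count over all probes ran from 4178 to 7923 and that over mRNA probes from 15 to 30, both highest without Sham 2. The within-array ratios kept their direction in all 60 recomputed values, with 0.0023 to 0.83 for Gamt over Duox1 and -0.61 to -0.03 for Prdx2 over Duox1 when 1 array was left out. On quantile-normalized signals Gamt over Prdx2 was 0.32 and Gamt over Duox1 0.03. After normexp correction Gamt over Duox1 was 0.92, Gpi1 over Prdx2 -0.80, Gpi1 over Duox1 -0.87 and Prdx2 over Duox1 -0.08, and on raw signals Prdx2 over Duox1 was -0.16. On normexp-corrected signals the log2 fold change itself, without subtracting a median, was 0.41 for Duox1 and 0.33 for Prdx2.

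Whether the replicate numbers in the titles pair the arrays cannot be decided from 3 arrays per group. Same-numbered arrays had correlations of deviations from the group mean of -0.094, 0.064 and 0.140. Of the 6 arrays, 2 correlated best with their own number. The replicate number as a block lowered the SE of Duox1 from 0.45 to 0.33. It raised that of Gamt from 0.22 to 0.27, of Gpi1 from 0.32 to 0.37 and of Prdx2 from 0.23 to 0.27. With the replicate number as a block 5266 probes passed in place of 5838, and the changes of 1.38, -0.65, 0.59 and 0.84 had adjusted p of 0.0126, 0.191, 0.116 and 0.0826 for Gamt, Gpi1, Prdx2 and Duox1, so no call changed. The deposited series table gave no value for the 4 genes. All 4 probes were well above background on every array, and the dimmest value was Duox1 on Sham 1, with a raw median of 46.25 against 20 on the negative controls.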
